A study of Mus musculus with 23 samples.

Results

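The epidermal growth factor (EGF) receptor system was followed through 10 genes in the colonic epithelium of mice. They were the receptors Egfr, Erbb2 and Erbb3, the ligands Areg, Ereg, Hbegf, Tgfa and Btc, and the feedback inhibitors Errfi1 and Spry1. The genes were taken by symbol from the 24917 gene loci that were counted, and each of the 10 matched 1 locus and passed the filter on low counts in every fit. Receptors of this family are tyrosine kinases of the cell surface that pair up when a ligand binds and pass the signal on through Ras and the kinase ERK. ERK in turn switches on genes that restrain the signal, and Errfi1 and Spry1 are known as such inhibitors. In the intestine the system is known for supporting the growth of crypts and the repair of the epithelium.

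Male C57BL/6J mice were placed on 1 of 3 regimens at 6 weeks of age and kept on it for 43 weeks. LF mice ate a diet with 10% fat, HF mice ate a diet with 60% fat, and HFLF mice ate the 60% fat diet for 15 weeks and then the 10% fat diet for 28 weeks. Epithelium was released from the whole colon with EDTA, and total RNA depleted of ribosomal RNA was sequenced from 4 LF, 3 HF and 4 HFLF samples labelled batch 1 and from 4 LF, 3 HF and 5 HFLF samples labelled batch 2. The comparison of HF with LF mice asks what a high-fat diet changes, and the comparisons of HFLF mice ask whether a return to low-fat food undoes it. The labels do not say what sets the batches apart or whether a mouse stands in both, and the study placed 5 mice on each regimen, fewer than the 8 LF, 6 HF and 9 HFLF samples here, so p-values from fits over both batches can be too small. The counts of a sample summed to 29189922 at the least and 46498521 at the most in batch 1, with a median of 36151372, while batch 2 ranged from 31607019 to 65320947, with a median of 38828993. Levels are given as CPM, counts scaled to a common library size with TMM factors fitted within each batch. At these depths 3 counts amount to between 0.0459 and 0.103 CPM, while the lowest count of any of the 10 genes was 60, for Ereg.

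The label of the tissue was checked against marker genes. The 9 epithelial markers summed to between 12388 and 16682 CPM per sample, led by the keratin Krt8. Markers of goblet cells, led by the mucin Muc2, summed to between 15337 and 41189 CPM, and those of absorptive colonocytes, led by Car1, to between 4102 and 11568 CPM. Other cells left little RNA: the 5 T cell markers, led by Ptprc, summed to between 14.1 and 34.5 CPM, the 5 myeloid markers, led by Itgam, to between 7.30 and 18.3 CPM, the 5 fibroblast markers, led by Col3a1, to between 2.86 and 51.3 CPM, and the 5 smooth muscle markers, led by Myh11, to between 0.541 and 46.4 CPM. The 3 endothelial markers, led by Pecam1, reached at most 10.3 CPM, and the 3 markers of B and plasma cells that were matched, led by Cd79b, at most 0.996 CPM. None of these markers was at 0 in every sample.

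Levels of different genes were compared per kilobase of exon (union of the annotated exons), over the 8 LF samples of both batches. Erbb3 stood first at 97.0 ± 13.2 (SD) CPM per kilobase, followed by Areg at 87.4 ± 18.9, Erbb2 at 74.6 ± 8.26, Errfi1 at 52.4 ± 6.31 and Hbegf at 50.6 ± 6.61. Neighbours in this upper group overlapped in their ranges over the samples. As the ranges do not set genes against each other within a sample, they do not settle the order. The place of Areg changed with the batch: in batch 1 it stood first, at 103 ± 12.6 CPM per kilobase beside 90.6 ± 15.5 for Erbb3, and in batch 2 it came after Erbb3 and Erbb2, at 72.1 ± 6.97 beside 103 ± 7.43 for Erbb3 and 74.6 ± 3.18 for Erbb2. In batch 2 every LF value of Erbb3 lay above those of Erbb2 and Areg, and the other genes kept their order in both batches. A step of 6.69-fold in the mean separated Hbegf from Tgfa, at 7.56 ± 0.209, without overlap between LF samples. Tgfa, Egfr (7.01 ± 0.767) and Spry1 (6.17 ± 1.27) again overlapped with their neighbours. Btc at 1.52 ± 0.221 and Ereg at 0.821 ± 0.274 CPM per kilobase were the lowest, and each stood apart from the gene above it. Of the 7 related receptors and ligands outside the 10 genes, Erbb4 and Nrg3 had 0 counts in all 23 samples, Epgn, Nrg1 and Nrg2 had at most 19, 5 and 11 counts in any sample, and Egf and Nrg4 passed the filter on low counts.

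A gene was called where edgeR gave it a Benjamini-Hochberg adjusted p under 0.05 over all genes tested together with a change of more than 1.2-fold, up or down. Between HF and LF mice, 3 of the 10 genes were called in batch 2, the receptors Erbb2 and Erbb3 and the inhibitor Spry1, all lower in HF mice, against 7.44% of all 14377 genes tested. In batch 1, edgeR called 0 of the 10 genes and 0% of the 14428 genes tested, although 3198 genes had an unadjusted p under 0.05. There, DESeq2 called 512 genes, among them 3 of the 10 (Errfi1, Hbegf and Spry1), and limma voom called 2422, among them 5 (also Areg and Erbb2), all 5 lower in HF mice. With both batches in 1 fit and batch as a term, Erbb2, Hbegf and Spry1 were lower and Btc was higher in HF mice, 4 of 10 against 17.8% of 14725 genes. The median log2 fold change of the 10 genes was -0.28 in batch 1, -0.088 in batch 2 and -0.23 over both, beside -0.0038, -0.013 and -0.0030 for all genes tested. In batch 1 the values of Ereg, Btc and Egfr were positive (0.72, 0.51 and 0.30) and those of the other members negative. The 10 genes were chosen with earlier results of these data known, and the study itself names Errfi1 and Spry1 as lower. These counts and medians are therefore not independent evidence. In bulk tissue, fewer cells of a type and less RNA per cell cannot be told apart. Without LF replicate 1, 2 or 3 or HF replicate 2 or 3 of batch 2, 0 of the 10 genes were called between HF and LF mice of that batch, with the direction of Erbb2, Erbb3 and Spry1 unchanged in each of these fits, and the calls over all genes went from 1069 to 49, 336, 41, 15 and 49, while without LF replicate 4 they were 2560 and without HFLF replicate 5 they were 688. Over both batches they went from 2623 to 1513 without HF replicate 3 of batch 1 and to 1724 without HF replicate 2 of batch 2. In batch 1, leaving out HF replicate 2 raised the calls over all genes to 1352, with 2 of the 10 genes called, Errfi1 and Hbegf, and leaving out HFLF replicate 2 left Hbegf called.

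Between HFLF and HF mice, Erbb2, Erbb3 and Hbegf were higher and Ereg was lower in HFLF mice of batch 2, 4 of 10 against 14.5% of all genes. In batch 1, 0 of 10 genes were called against 0.00693% of all genes (1 gene by edgeR, 1566 at an unadjusted p under 0.05, 17 by DESeq2 and 3 by limma voom). With both batches, Erbb2, Erbb3 and Spry1 were higher in HFLF mice, 3 of 10 against 10.2%. Without HF replicate 2 of batch 2, 0 of the 10 genes were called in batch 2 and 11 of all genes in place of 2084, and over both batches Erbb2 alone of the 10 was called. Without HF replicate 3 of batch 2, Erbb2 and Erbb3 were called in batch 2 and in the fit over both batches. Over both batches 6 were called without HF replicate 2 of batch 1 and 5 without HFLF replicate 1 of batch 1, while the calls over all genes lay between 465 and 2647 over the libraries left out, beside 1500. Between HFLF and LF mice, 0 of 10 genes were called by edgeR, DESeq2 or limma voom in batch 1, in batch 2 and over both, against 0%, 0.00696% and 0% of all genes by edgeR. At an unadjusted p under 0.05 these comparisons gave 763, 669 and 599 genes, while DESeq2 called 6, 16 and 6 and limma voom 0, 0 and 3. The comparisons of HF with LF and of HFLF with HF mice share the HF samples.

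Groups were also compared by whether their samples overlapped. In batch 1, Areg, Hbegf and Errfi1 lay lower in every HF than in every LF sample, 3 of 10 genes against 13.6% of all genes. In batch 2, Erbb2, Erbb3 and Spry1 lay lower and Tgfa higher in every HF sample, 4 of 10 against 27.3%. Between HFLF and HF mice, 2 of 10 genes stood apart in batch 1 against 8.02% (Egfr lower and Spry1 higher in HFLF mice) and 5 of 10 in batch 2 against 27% (Erbb2 and Erbb3 higher, Ereg, Tgfa and Btc lower in HFLF mice). Between HFLF and LF mice, Hbegf and Errfi1 stood apart in batch 1, both lower in HFLF mice, 2 of 10 against 2.41%, and 0 of 10 stood apart in batch 2, against 1.29%.

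**Figure D1:**
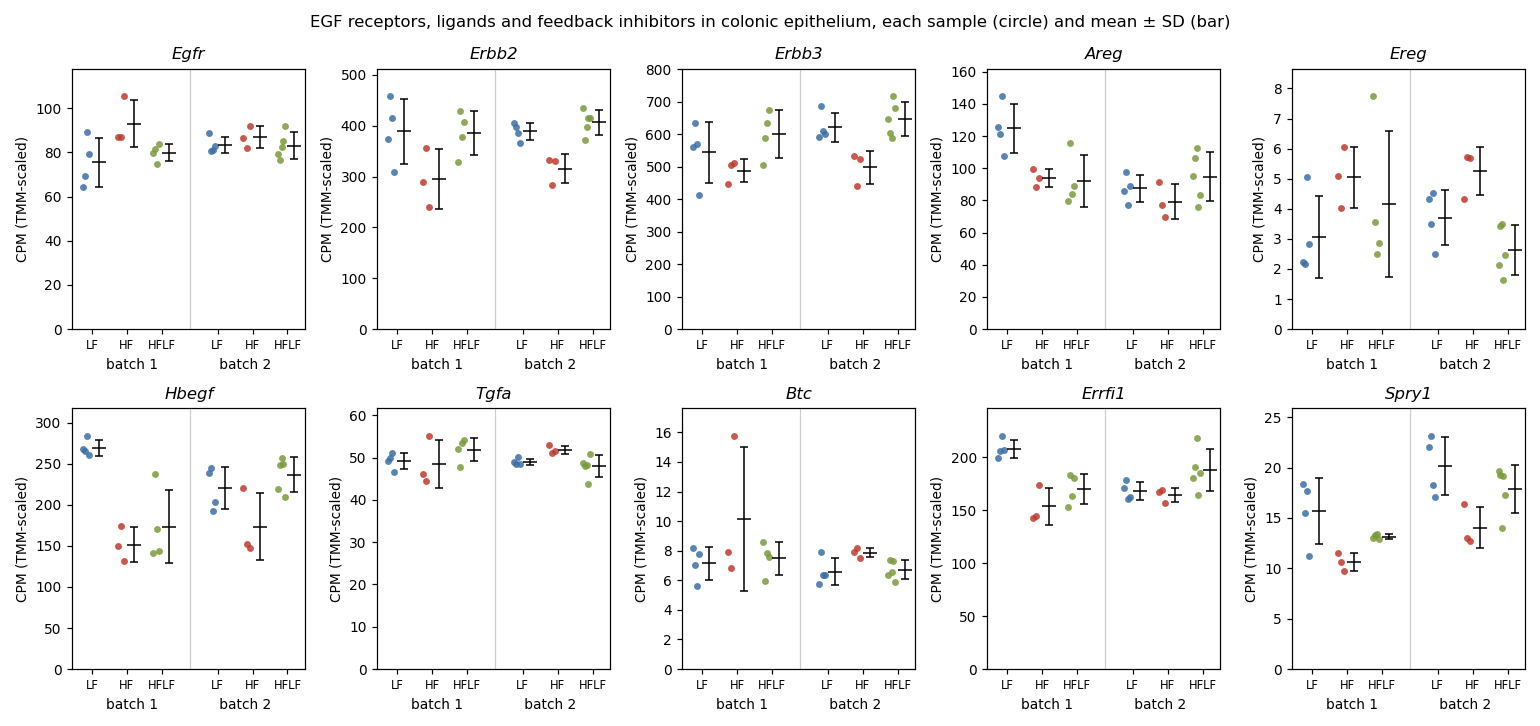
TMM-scaled CPM (vertical axis, from 0) of each of the 10 genes in every sample, by diet and batch (horizontal axis), with circles for samples and bars for mean ± SD. All 3 HF samples of batch 2 lie below all LF samples for Erbb2, Erbb3 and Spry1, and all 4 HFLF samples of batch 1 lie below all LF samples for Hbegf and Errfi1.

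Egfr (Entrez identifier 13649; chromosome 11, 16752203 to 16913907, plus strand, coordinates on mm10 here and below) encodes the receptor that binds the 5 ligands. In batch 1 it had 64.2, 69.4, 89.1 and 79.4 CPM in the LF samples, 86.8, 87.1 and 105 CPM in the HF samples and 79.7, 81.6, 74.8 and 83.7 CPM in the HFLF samples. In batch 2 the values were 88.6, 80.5, 81.3 and 83.0 CPM in LF, 86.7, 82.2 and 92.1 CPM in HF and 79.3, 76.6, 82.6, 85.1 and 92.1 CPM in HFLF mice. HF replicate 3 of batch 1 was the highest of its batch, and the HF and LF samples overlapped in both batches. The log2 fold change from LF to HF mice was 0.30 ± 0.11 (SE) in batch 1 (adjusted p = 0.178) and 0.062 ± 0.067 in batch 2 (adjusted p = 0.536). Over both batches it was 0.19 ± 0.066 with an adjusted p of 0.0346, a fold change of 1.14 that lies under the threshold of 1.2.

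Erbb2 (Entrez identifier 13866; chromosome 11, 98412484 to 98437716, plus strand) encodes a receptor with no known ligand of its own that serves as partner of the others. In batch 1 it had 374, 457, 416 and 308 CPM in LF, 289, 357 and 239.7 CPM in HF and 329, 429, 378 and 408 CPM in HFLF samples. In batch 2 it had 405, 397, 385 and 367 CPM in LF, 333, 284 and 331 CPM in HF and 434, 371, 397, 415 and 415 CPM in HFLF samples. The 3 HF samples of batch 2 lay below all LF and HFLF samples of that batch, and in batch 1, HF replicate 2 lay among the LF samples. Erbb2 fell in HF mice of batch 2, from 388 ± 16.6 (SD, n = 4) to 316 ± 27.7 (SD, n = 3) CPM, a log2 fold change of -0.30 ± 0.074 (SE; adjusted p = 0.0363), and over both batches the change was -0.34 ± 0.085 (adjusted p = 0.00886). In batch 1 the log2 fold change was -0.40 ± 0.16 with an adjusted p of 0.183. Without LF replicate 1, 2 or 3 or HF replicate 2 or 3, the adjusted p in batch 2 lay between 0.0598 and 0.207, while the log2 fold change was -0.22 without HF replicate 2 and between -0.33 and -0.28 without the others. HFLF mice of batch 2 had 406 ± 23.8 (SD, n = 5) CPM, higher than HF mice by 0.36 ± 0.071 (adjusted p = 0.0132), a call lost without HF replicate 2 (log2 fold change 0.28, adjusted p = 0.102). In batch 1 the difference from HF mice was 0.39 ± 0.16 (adjusted p = 0.425).

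Erbb3 (Entrez identifier 13867; chromosome 10, 128569368 to 128589501, minus strand) encodes a receptor with a weak kinase that binds neuregulins and signals through its partners. In batch 1 it had 562, 634, 569.9 and 414 CPM in LF, 446, 506 and 512 CPM in HF and 505, 590.0, 634 and 675 CPM in HFLF samples. In batch 2 it had 591, 688, 611 and 600.0 CPM in LF, 532, 441 and 523 CPM in HF and 648, 603, 588, 717 and 679.8 CPM in HFLF samples. As for Erbb2, the 3 HF samples of batch 2 lay below every other sample of that batch, whereas in batch 1, LF replicate 4 was lower than the HF samples. Erbb3 fell in HF mice of batch 2, with a log2 fold change of -0.32 ± 0.090 (SE; adjusted p = 0.0437), beside -0.16 ± 0.14 in batch 1 (adjusted p = 0.506). Over both batches the value was -0.23 ± 0.083 (adjusted p = 0.0412), with a fold change under the threshold, and without LF replicate 4 of batch 1 it was -0.29 and called (adjusted p = 0.00755). The call in batch 2 was lost without LF replicate 1, 2 or 3, any HF replicate or HFLF replicate 5 (log2 fold change between -0.37 and -0.23, adjusted p between 0.0517 and 0.233), without a filter on low counts (adjusted p = 0.0517) and with a block for replicate number (adjusted p = 0.0533). HFLF mice had more Erbb3 than HF mice in batch 2, by 0.38 ± 0.086 (adjusted p = 0.0174), and over both batches, by 0.33 ± 0.081 (adjusted p = 0.0153). Without HF replicate 2 of batch 2 these values were 0.28 and 0.29, and their adjusted p were 0.130 and 0.0506.

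Among the ligands, Hbegf (Entrez identifier 15200; chromosome 18, 36504927 to 36515805, minus strand), which encodes heparin-binding EGF-like growth factor, differed most between HF and LF mice of batch 1. It had 268, 265, 283 and 261 CPM in the LF samples, 149, 174 and 131 CPM in the HF samples and 141, 237, 171 and 144 CPM in the HFLF samples of batch 1. In batch 2 it had 239, 245, 193 and 204 CPM in LF, 221, 152 and 148 CPM in HF and 219, 249, 257, 249.5 and 210.0 CPM in HFLF samples. In batch 1 every HF and every HFLF sample lay below every LF sample, and HFLF replicate 2 was the highest of the HFLF samples. In batch 2 the HFLF and LF samples overlapped, and HF replicate 1 lay among them while HF replicates 2 and 3 lay below. From LF to HF mice the log2 fold change was -0.83 ± 0.16 (SE) in batch 1 (adjusted p = 0.137 by edgeR, 0.000717 by DESeq2 and 0.0118 by limma voom) and -0.34 ± 0.13 in batch 2 (adjusted p = 0.0932). Hbegf fell in HF mice over both batches, with a change of -0.59 ± 0.14 on the log2 scale (adjusted p = 0.00623). In batch 1, edgeR called it without HF replicate 2 (adjusted p = 0.0332) and without HFLF replicate 2 (adjusted p = 0.0262), and in batch 2 without HF replicate 1 (log2 fold change -0.55, adjusted p = 0.0290).

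HFLF mice of batch 2 had more Hbegf than HF mice by 0.45 ± 0.13 on the log2 scale (SE; adjusted p = 0.0289). That call was lost without HF replicate 2 or 3 or HFLF replicate 3 or 4 of batch 2 (log2 fold change between 0.34 and 0.43, adjusted p between 0.0518 and 0.179). In batch 1 the difference between HFLF and HF mice was 0.19 ± 0.16 (adjusted p = 0.638), and HFLF differed from LF mice by -0.64 ± 0.15 (adjusted p = 0.792). Without HFLF replicate 2 that last value was -0.82 and was called (adjusted p = 0.0257). In batch 2, HFLF mice differed from LF mice by 0.11 ± 0.11 (adjusted p = 1.000). Over both batches, HFLF mice differed from HF mice by 0.34 ± 0.13 (adjusted p = 0.0726), a difference that was called by DESeq2 (adjusted p = 0.0419) and, by edgeR, without HFLF replicate 1 or 4 or HF replicate 2 of batch 1 or HF replicate 1 of batch 2 (adjusted p between 0.0288 and 0.0480).

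Areg (Entrez identifier 11839; chromosome 5, 91139615 to 91148432, plus strand) encodes amphiregulin, a ligand made by epithelium and immune cells and known for its part in repair. Areg in batch 1 stood at 126, 121, 145 and 108 CPM in LF, 99.5, 88.2 and 93.7 CPM in HF and 79.4, 116, 83.8 and 89.2 CPM in HFLF samples. Areg in batch 2 stood at 85.8, 97.9, 77.4 and 89.2 CPM in LF, 91.2, 77.1 and 69.4 CPM in HF and 95.2, 107, 113, 75.9 and 83.6 CPM in HFLF samples. The LF samples of batch 1 were the high ones, 3 of the 4 lying above all HF and HFLF samples of that batch, while in batch 2 the 3 diets overlapped. The log2 fold change from LF to HF mice was -0.41 ± 0.13 (SE) in batch 1 (adjusted p = 0.162), -0.14 ± 0.13 in batch 2 (adjusted p = 0.441) and -0.28 ± 0.11 over both (adjusted p = 0.0657). HFLF mice differed from LF mice by -0.44 ± 0.12 in batch 1 and by 0.11 ± 0.11 in batch 2 (adjusted p = 0.792 and 1.000). Over both batches DESeq2 (adjusted p = 0.0484), edgeR with a filter on mean CPM (adjusted p = 0.0465) and the fit of HF and LF samples alone (adjusted p = 0.0325) called Areg lower in HF mice, as did edgeR without LF replicate 3, HFLF replicate 3 or HF replicate 1 of batch 2 (adjusted p between 0.0395 and 0.0498).

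Ereg (Entrez identifier 13874; chromosome 5, 91074617 to 91093649, plus strand), which encodes epiregulin, was the least abundant of the 10 genes, with 60 to 372 counts per sample. Ereg in batch 1 stood at 2.22, 2.17, 5.07 and 2.82 CPM in LF, 5.09, 4.01 and 6.04 CPM in HF and 7.73, 3.55, 2.48 and 2.88 CPM in HFLF samples. Ereg in batch 2 stood at 4.31, 3.51, 4.52 and 2.49 CPM in LF, 4.33, 5.72 and 5.69 CPM in HF and 2.14, 3.44, 3.51, 1.63 and 2.46 CPM in HFLF samples. HFLF replicate 1 of batch 1 was the highest of its batch, and in batch 2 every HFLF sample lay below every HF sample. Ereg was lower in HFLF than in HF mice of batch 2, with a log2 fold change of -0.995 ± 0.23 (SE; adjusted p = 0.0177), a call lost without HF replicate 2 or 3, where the change was -0.95 and -0.93 (adjusted p = 0.107 and 0.0541). In batch 1 that difference was -0.28 ± 0.38 (adjusted p = 0.783). Over both batches it was -0.65 ± 0.25 (adjusted p = 0.0698), and without HFLF replicate 1 of batch 1 it was -0.91 and called (adjusted p = 0.00650), as it was without HF replicate 2 of batch 1 (adjusted p = 0.0440) and, with all samples, by DESeq2 and limma voom (adjusted p = 0.0420 and 0.0150). From LF to HF mice the log2 fold changes were 0.72 ± 0.38 in batch 1, 0.51 ± 0.24 in batch 2 and 0.61 ± 0.26 over both (adjusted p = 0.276, 0.152 and 0.0736). Without HFLF replicate 1 or HF replicate 2 of batch 1, the value over both batches was called (adjusted p = 0.0226 and 0.0488), and with all samples DESeq2, limma voom and the fit of HF and LF samples alone called it (adjusted p = 0.0498, 0.0373 and 0.0295).

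Btc (Entrez identifier 12223; chromosome 5, 91357261 to 91402994, minus strand) encodes betacellulin. Btc in batch 1 stood at 8.15, 7.01, 5.61 and 7.79 CPM in LF, 7.89, 6.81 and 15.7 CPM in HF and 8.57, 5.92, 7.86 and 7.61 CPM in HFLF samples. Btc in batch 2 stood at 5.75, 7.89, 6.33 and 6.34 CPM in LF, 7.93, 8.17 and 7.52 CPM in HF and 6.32, 7.39, 6.59, 7.32 and 5.90 CPM in HFLF samples. HF replicate 3 of batch 1 stood alone at the top of its batch, and the HF and LF samples overlapped in both batches. Btc was called higher in HF than in LF mice over both batches, by 0.39 ± 0.14 on the log2 scale (SE; adjusted p = 0.0396), but without HF replicate 3 of batch 1 the value was 0.18 (adjusted p = 0.221). The call was also lost without LF replicate 2 or 3 of batch 1, LF replicate 1 or 3 of batch 2 or HF replicate 1 or 2 of batch 2 (log2 fold change between 0.34 and 0.41, adjusted p at most 0.0898), under limma voom (adjusted p = 0.137), with a block for replicate number (adjusted p = 0.0527) and in the fit of HF and LF samples alone (adjusted p = 0.0797). Within the batches the log2 fold changes were 0.51 ± 0.25 and 0.26 ± 0.12 (adjusted p = 0.246 and 0.139). HFLF mice differed from HF mice by -0.34 ± 0.14 over both batches (adjusted p = 0.0812), and without HF replicate 2 of batch 1 this was -0.42 and called (adjusted p = 0.0275).

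Tgfa (Entrez identifier 21802; chromosome 6, 86195251 to 86275449, plus strand), which encodes transforming growth factor alpha, had the narrowest range over the samples, relative to its level, of the 10 genes. Tgfa in batch 1 stood at 49.2, 49.8, 51.2 and 46.6 CPM in LF, 46.1, 44.4 and 55.0 CPM in HF and 52.1, 47.9, 53.3 and 54.2 CPM in HFLF samples. Tgfa in batch 2 stood at 49.1, 48.4, 50.1 and 48.4 CPM in LF, 52.9, 51.1 and 51.5 CPM in HF and 48.8, 48.1, 48.2, 43.7 and 50.9 CPM in HFLF samples. All 23 samples lay between 43.7 and 55.0 CPM, and although the 3 HF samples of batch 2 lay above the rest of that batch, the log2 fold change from LF to HF mice was 0.082 ± 0.055 (SE; adjusted p = 0.307). In batch 1 it was -0.021 ± 0.090 (adjusted p = 0.900).

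Errfi1 (Entrez identifier 74155; chromosome 4, 150855091 to 150868880, plus strand), also known as Mig6, encodes a protein that binds activated receptors of the family and blocks their kinase. Errfi1 in batch 1 stood at 199, 205, 219 and 207 CPM in LF, 142, 144 and 174 CPM in HF and 153, 183, 163 and 180.2 CPM in HFLF samples. Errfi1 in batch 2 stood at 171, 178, 160.4 and 162 CPM in LF, 167, 169 and 157 CPM in HF and 179.8, 191, 218, 165 and 185 CPM in HFLF samples. The 4 LF samples of batch 1 lay above every HF and HFLF sample of that batch, while in batch 2 the 3 diets overlapped. The log2 fold change from LF to HF mice was -0.44 ± 0.10 (SE) in batch 1 (adjusted p = 0.137 by edgeR, 0.00399 by DESeq2 and 0.0142 by limma voom) and -0.032 ± 0.081 in batch 2 (adjusted p = 0.810). Without HF replicate 2 of batch 1, edgeR called it in batch 1 (adjusted p = 0.0489). Over both batches the change was -0.23 ± 0.081 (adjusted p = 0.0378), with a fold change under the threshold. HFLF mice differed from LF mice by -0.29 ± 0.090 in batch 1 and 0.16 ± 0.071 in batch 2 (adjusted p = 0.792 and 1.000).

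Spry1 (Entrez identifier 24063; chromosome 3, 37639950 to 37644599, plus strand) encodes a Sprouty protein, an inhibitor of the path from growth factor receptors to ERK. Spry1 in batch 1 stood at 18.4, 15.5, 17.7 and 11.2 CPM in LF, 11.5, 10.6 and 9.74 CPM in HF and 13.02, 13.3, 13.4 and 12.9 CPM in HFLF samples. Spry1 in batch 2 stood at 22.0, 23.1, 18.3 and 17.1 CPM in LF, 16.4, 12.98 and 12.7 CPM in HF and 19.7, 19.3, 13.95, 19.1 and 17.3 CPM in HFLF samples. The HF samples were low in both batches, overlapping with the LF samples of batch 1 through LF replicate 4 alone. Spry1 fell in HF mice of batch 2, from 20.1 ± 2.87 (SD, n = 4) to 14.02 ± 2.02 (SD, n = 3) CPM, a log2 fold change of -0.52 ± 0.13 (SE; adjusted p = 0.0381), and over both batches, where the change was -0.53 ± 0.10 (adjusted p = 0.00307). In batch 1 the change was -0.56 ± 0.15 (adjusted p = 0.148 by edgeR, 0.0268 by DESeq2 and 0.0381 by limma voom). Without LF replicate 1, 2 or 3 or HF replicate 2 or 3, the log2 fold change in batch 2 lay between -0.56 and -0.45 and its adjusted p between 0.0698 and 0.207, while the fit over both batches called Spry1 whichever library was left out. HFLF mice had more Spry1 than HF mice over both batches, by 0.33 ± 0.10 (adjusted p = 0.0299), a call lost without HF replicate 3 of batch 1, HFLF replicate 1 or 4 of batch 2 or HF replicate 2 or 3 of batch 2 (log2 fold change between 0.30 and 0.31, adjusted p between 0.0527 and 0.0808). In batch 2 alone that difference was 0.35 ± 0.13 (adjusted p = 0.0679), and it was called without HFLF replicate 3 or HF replicate 1 (adjusted p = 0.0337 and 0.0410) and, with all samples, by DESeq2, by limma voom and with a block for replicate number (adjusted p = 0.0419, 0.0403 and 0.0314). HFLF mice differed from LF mice in Spry1 by -0.26 ± 0.14 in batch 1, -0.17 ± 0.12 in batch 2 and -0.21 ± 0.089 over both, and none of these was called. Errfi1 and Spry1 were picked out by the study itself, so their direction between HF and LF mice is not independent evidence.

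**Figure D2:**
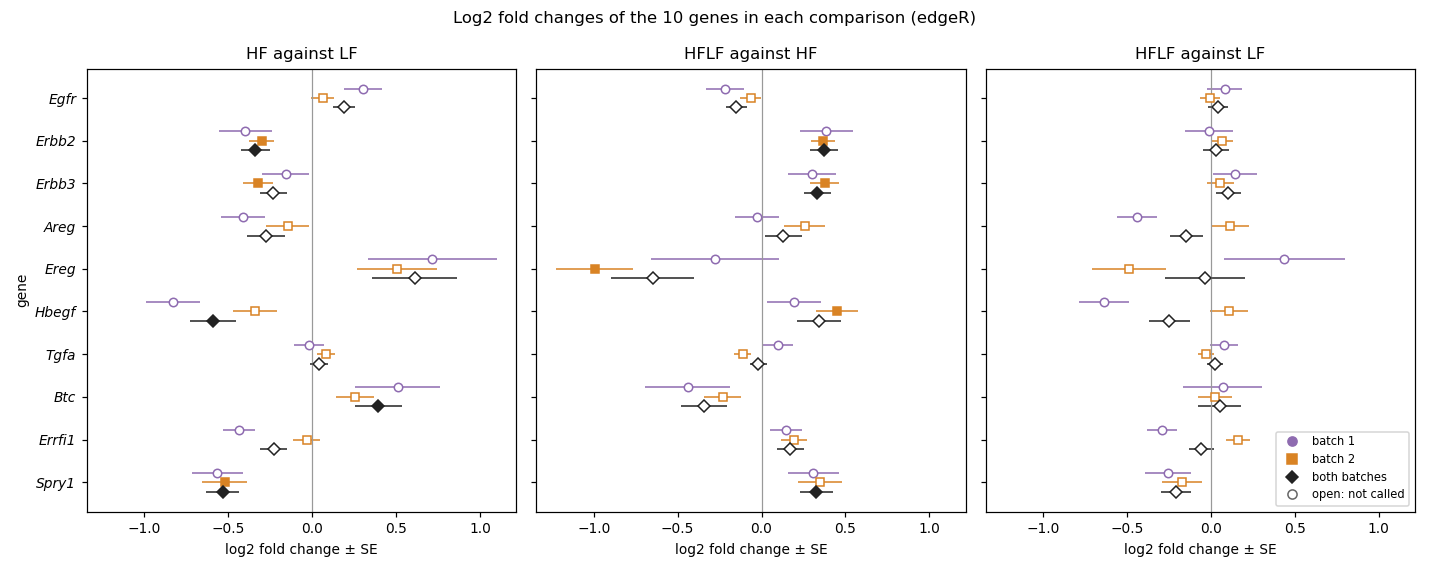
Log2 fold change ± SE (horizontal axis) of each of the 10 genes (vertical axis) in each comparison by edgeR, for batch 1 (circles), batch 2 (squares) and both batches (diamonds), with filled symbols for genes called. Spry1 lies at -0.56, -0.52 and -0.53 between HF and LF mice, while Hbegf between HFLF and LF mice lies at -0.64 in batch 1 and 0.11 in batch 2.

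Whether the effect of diet differed between the batches was tested as an interaction of batch and diet. For HFLF against LF mice, the log2 fold change in batch 2 exceeded that in batch 1 by 0.74 ± 0.20 (SE) for Hbegf, 0.44 ± 0.11 for Errfi1 and 0.55 ± 0.17 for Areg. Over all 14725 genes the adjusted p were 0.632, 0.632 and 0.632. Without HFLF replicate 2 of batch 1 the difference was 0.90 for Hbegf and 0.46 for Errfi1 (adjusted p = 0.0548 and 0.0976), with 3 of all genes under 0.05, and without any other single library the adjusted p for Hbegf lay between 0.410 and 0.941. With all samples the adjusted p for Hbegf was 0.136 by limma voom, 0.191 with a block for replicate number and 0.210 by DESeq2, and for Errfi1 0.137, 0.214 and 0.202. None of the 10 genes had an adjusted p under 0.05 in any of these fits. For HF against LF mice the difference was 0.42 ± 0.12 for Errfi1 (adjusted p = 0.686), 0.50 ± 0.22 for Hbegf (adjusted p = 0.752) and 0.061 ± 0.21 for Spry1 (adjusted p = 0.973). Without HF replicate 1 of batch 2, that difference for Hbegf was 0.26 (adjusted p = 0.941 by edgeR). With all samples, edgeR gave an adjusted p under 0.05 to 0 of all genes for any of the 3 comparisons, with 957, 1133 and 1124 genes at an unadjusted p under 0.05 for HF against LF, HFLF against HF and HFLF against LF mice. For the last of these, DESeq2 gave 3 genes and limma voom 1, none of the 10 among them, and for the other comparisons both gave 0.

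Around the 10 genes, 54 other genes of the pathway were examined, of which 49 passed the filter on low counts. Between HF and LF mice, edgeR called 0 in batch 1, where at most 4 genes of any of the 6 lists had an unadjusted p under 0.05, 9 were called lower and 0 higher in batch 2, and 8 lower and 1 higher over both batches, beside 7.44% and 17.8% of all genes. The 9 of 49 over both batches are thus near the share of all genes. Between HFLF and HF mice, 0 were called in batch 1, 9 were called higher and 0 lower in batch 2, and 7 higher and 0 lower over both batches, beside 14.5% of all genes in batch 2 and 10.2% over both, and between HFLF and LF mice 0 were called. Their median log2 fold change between HF and LF mice was -0.029 in batch 1, -0.094 in batch 2 and -0.027 over both.

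Of 4 genes of ligand release, 1 was called lower in HF mice of batch 2 and over both batches, beside 7.44% and 17.8% of all genes. It was Rhbdf1, which encodes an inactive rhomboid that regulates the shedding of ligands. Its log2 fold change was -0.35 ± 0.085 (SE) in batch 2 (adjusted p = 0.0351) and -0.37 ± 0.077 over both (adjusted p = 0.00472). The proteases Adam10 and Adam17, which cut the ligand precursors, were not called in any of these comparisons. Of 9 genes that restrain receptors, 3 were called lower in HF mice of batch 2, beside 7.44% of all genes: the ubiquitin ligase Cbl at -0.41 ± 0.094, Lrig2 at -0.36 ± 0.083 and Lrig1 at -0.34 ± 0.090 (adjusted p = 0.0310, 0.0310 and 0.0382). Over both batches 2 of the 9, Cbl and Cblb, were called, beside 17.8% of all genes, at -0.31 ± 0.090 and -0.27 ± 0.10 (adjusted p = 0.0169 and 0.0389). Of 6 other Sprouty and Spred genes, Spred2 was called lower in HF mice of batch 2, at -0.38 ± 0.076 (adjusted p = 0.0240), and 0 over both batches, beside 7.44% and 17.8% of all genes.

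Of 17 core genes of the Ras-ERK path, Gab1 alone was called in batch 2 and Gab1 and Hras over both batches, beside 7.44% and 17.8% of all genes. The adaptor gene Gab1 was called lower in HF mice of batch 2 (-0.27 ± 0.070 on the log2 scale, SE; adjusted p = 0.0382) and over both batches (-0.34 ± 0.081; adjusted p = 0.00686). Hras was called higher over both, at 0.27 ± 0.092 (adjusted p = 0.0320). Of 11 transcripts that ERK is known to induce, 3 were called lower in HF mice of batch 2, beside 7.44% of all genes, the ERK phosphatase genes Dusp4 and Dusp5 and the transcription factor gene Egr1, at -0.42 ± 0.090, -0.79 ± 0.20 and -0.60 ± 0.14 (adjusted p = 0.0260, 0.0357 and 0.0305). Over both batches these 3 and Fosl1 were called, beside 17.8% of all genes, with Dusp5 at -1.03 ± 0.19, Egr1 at -0.67 ± 0.13, Dusp4 at -0.37 ± 0.11 and Fosl1 at -0.70 ± 0.22 (adjusted p = 0.00251, 0.00360, 0.0156 and 0.0240). The log2 fold changes of the 11 were positive for 6 in batch 1, 3 in batch 2 and 4 over both batches, with medians of 0.0045, -0.22 and -0.040. In HFLF mice of batch 2, Dusp4, Dusp5, Egr1 and Fosl1, 4 of the 11, were called higher than in HF mice, beside 14.5% of all genes. The study itself also names Dusp5, so its direction between HF and LF mice is not independent evidence. Neither remaining ligand that was tested, Egf or Nrg4, was called.

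Markers of several cell types also differed between HF and LF mice, and their part in the changes above was not tested. The counts of called markers stand beside 7.44% of all genes in batch 2 and 17.8% over both batches. Of the 5 enteroendocrine markers, 3 rose in HF mice of batch 2 and over both batches, the hormone genes Pyy, Insl5 and Gcg, with Pyy at 0.55 ± 0.088 (SE) on the log2 scale in batch 2 (adjusted p = 0.0106). The list, led by Chgb, summed to 318, 267, 355 and 362 CPM in the LF samples, 403, 393 and 393 CPM in the HF samples and 291, 267, 289, 328 and 355 CPM in the HFLF samples of batch 2. In batch 1 the sums were 154, 195, 211 and 227 CPM in LF, 238, 275 and 199.8 CPM in HF and 206, 222, 182 and 215 CPM in HFLF samples. All 3 HF samples of batch 2 lay above the other samples of that batch. Of the 5 goblet cell markers, 2 rose in HF mice of batch 2 and over both batches, Tff3 and Spink4, at 0.63 ± 0.14 and 1.13 ± 0.29 in batch 2 (adjusted p = 0.0280 and 0.0373). Muc2, the most abundant of them, had a log2 fold change of -0.56 ± 0.20 in batch 2 (adjusted p = 0.0766) and -0.30 ± 0.16 over both batches (adjusted p = 0.162). The summed goblet markers of batch 2 were 33097, 31127, 37968 and 30512 CPM in LF, 26482, 29843 and 28822 CPM in HF and 31738, 33332, 24143, 35531 and 41189 CPM in HFLF samples, and in batch 1 they were 17899, 19704, 29044 and 20770 CPM in LF, 19946, 22258 and 15337 CPM in HF and 26063, 24074, 19878 and 22144 CPM in HFLF samples. The 3 HF sums of batch 2 lay below every LF sum of that batch, while in batch 1 the groups overlapped.

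Of the 6 markers of stem and dividing cells, Axin2, a target of Wnt signals, fell and Smoc2 rose in HF mice of batch 2, with log2 fold changes of -0.39 ± 0.10 and 0.35 ± 0.10 (SE) (adjusted p = 0.0373 and 0.0491), and over both batches Top2a was also called, higher by 0.54 ± 0.17 (adjusted p = 0.0238). The list, led by Mki67, summed to 264, 249.9, 441 and 255 CPM in LF, 396, 346 and 500.0 CPM in HF and 448, 353, 292 and 371 CPM in HFLF samples of batch 1. In batch 2 the sums were 543, 453, 480.4 and 443 CPM in LF, 485, 513 and 438 CPM in HF and 494, 448, 375, 441 and 568 CPM in HFLF samples. The groups overlapped in both batches. Of the 5 smooth muscle markers, Actg2 was called lower in HF mice of batch 2, at -3.01 ± 0.73 (adjusted p = 0.0350), and of the 5 fibroblast markers Pdgfra was called lower over both batches, at -1.19 ± 0.44 (adjusted p = 0.0462).

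The summed smooth muscle markers were 18.8, 7.01, 29.1 and 5.40 CPM in LF, 4.44, 0.858 and 3.04 CPM in HF and 14.6, 1.84, 2.07, 10.7 and 5.96 CPM in HFLF samples of batch 2, and 1.14, 3.23, 8.49 and 10.6 CPM in LF, 9.21, 9.05 and 0.541 CPM in HF and 22.6, 46.4, 2.46 and 17.6 CPM in HFLF samples of batch 1. In batch 2 every HF sample lay below every LF sample, and in batch 1 the groups overlapped. The summed fibroblast markers were 32.6, 19.0, 33.0 and 9.18 CPM in LF, 15.8, 4.27 and 10.5 CPM in HF and 22.8, 7.72, 7.04, 16.1 and 12.3 CPM in HFLF samples of batch 2, and 15.5, 15.7, 26.8 and 15.4 CPM in LF, 21.1, 28.4 and 2.86 CPM in HF and 46.5, 51.3, 12.3 and 33.4 CPM in HFLF samples in batch 1. These sums are small beside those of the epithelial markers, at 12388 CPM or more. They are not small beside the lowest of the 10 genes, as Spry1 had 9.74 to 23.1 CPM per sample, Btc 5.61 to 15.7 and Ereg 1.63 to 7.73. The part of smooth muscle and fibroblasts in the changes of the 10 genes was not tested. Of the absorptive colonocyte, tuft cell, epithelial, T cell, B and plasma cell, myeloid and endothelial markers that were tested, edgeR called 0 between HF and LF mice in batch 1, in batch 2 or over both batches, with at most 3 of any list at an unadjusted p under 0.05, and no B or plasma cell marker passed the filter on low counts in batch 1. Between HFLF and HF mice of batch 2, where 14.5% of all genes were called, the enteroendocrine markers Pyy, Insl5 and Gcg (3 of 5), the goblet marker Tff3 (1 of 5), Smoc2 of the stem and dividing cell list and Slc51a of the absorptive colonocyte list (1 of 5) were called lower in HFLF mice. Axin2 and the T cell markers Itgae and Cd3e (2 of 5) were called higher. The other absorptive colonocyte markers did not move together from HF to HFLF mice of batch 2. Mean CPM rose for Slc26a3 (820 to 902) and Aqp8 (326 to 357) and fell for Car1 (4676 to 3510) and Car4 (310 to 307). Over both batches, where 10.2% of all genes were called, Pyy, Insl5 and Gcg (3 of 5) and Slc51a (1 of 5) were called lower in HFLF mice. Axin2 (1 of 6) was called higher. All 5 smooth muscle markers were higher over both batches, with a median log2 fold change of 1.58, 3 at an unadjusted p under 0.05 and 0 called. The part of these markers in the differences of Erbb2, Erbb3, Hbegf, Ereg and Spry1 between HFLF and HF mice was not tested.

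Between HFLF and LF mice of batch 1, where the samples of Hbegf and Errfi1 stood apart, edgeR called 0% of all genes, and 763 of 14428 had an unadjusted p under 0.05. All 5 smooth muscle markers were higher in HFLF mice there, their median on the log2 scale being 2.05, with 4 of the 5 at an unadjusted p under 0.05, and all 5 fibroblast markers were higher, with a median of 1.07 and 0 at that level. All 5 T cell markers were lower, with a median of -0.58 and 2 at that level, and all 4 tuft cell markers were lower, with a median of -0.11 and 0 at that level. The summed tuft cell markers of batch 1 were 71.8, 69.8, 80.4 and 74.3 CPM in LF and 62.2, 80.4, 62.9 and 57.3 CPM in HFLF samples. The summed T cell markers of batch 1 were 24.9, 34.5, 29.9 and 26.1 CPM in LF and 15.4, 26.1, 18.0 and 18.6 CPM in HFLF samples. Those of absorptive colonocytes were 7064, 5495, 7446 and 5212 CPM in LF and 11568, 6129, 8341 and 10274 CPM in HFLF samples. Car1 averaged 3850 CPM in these LF and 6677 CPM in these HFLF samples. Of the 5 absorptive colonocyte markers, 3 were higher and 2, Slc26a3 and Slc51a, lower in HFLF mice. Their median log2 fold change was 0.091, with 1 at an unadjusted p under 0.05. HFLF replicate 2, the highest of its group for Hbegf, was also the highest of it for the T cell, smooth muscle and fibroblast sums. It was the highest as well for the tuft cell, myeloid and B and plasma cell sums, and the lowest for the absorptive colonocyte sum. The other 3 HFLF samples lay below every LF sample for the T cell and tuft cell sums. For the absorptive colonocyte sum, led by Car1, they lay above every LF sample. The part of these cell types in the differences of Hbegf and Errfi1 between HFLF and LF mice was not tested.

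Patterns across the 23 samples were compared as profiles of log2 CPM centred within each batch and standardised, by the mean absolute difference between profiles, where 0 means the same profile. Areg lay 0.49 from Hbegf and 0.52 from Errfi1, and Hbegf lay 0.58 from Errfi1, beside a median of 1.118 from Areg to all genes. The receptors Erbb2 and Erbb3 lay 0.47 apart, and Spry1 lay 0.60 from Hbegf. The genes most like each of the 10 were Fosl1 (0.44), Erdr1 (0.46) and Hbegf itself for Areg, Atf3 (0.27), Dusp5 (0.31) and Ccnl1 (0.33) for Hbegf, and Ush1c (0.49), Sh3glb2 (0.50) and Fosl1 (0.51) for Errfi1. For the receptors they were Adcy6 (0.21), Aff1 (0.23) and Vdr (0.23) for Erbb2, Glcci1 (0.28), Ctdsp2 (0.32) and Insr (0.36) for Erbb3, and Nup205 (0.40), Nup160 (0.41) and Ermp1 (0.42) for Egfr. For the rest they were Prr24 (0.35), Tbcel (0.36) and Igfn1 (0.40) for Spry1, Smim15 (0.26) for Btc, Arid3a (0.45), Capzb (0.47) and Gpd1 (0.48) for Ereg, and Slc47a1 (0.54), Mapk6 (0.55) and H2-D1 (0.57) for Tgfa. Of the 10 genes, Tgfa had the least close first match.

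Ereg, Areg and Btc lie together on chromosome 5, with 46.0 kilobases between Ereg and Areg and 208.8 kilobases between Areg and Btc. Areg was less like its neighbours than like the median gene: it lay 1.32 from Ereg and 1.22 from Btc, beside the median of 1.118 to all genes, while Ereg lay 0.95 from Btc. The locus of Erbb2 overlaps that of Mien1 on the other strand by 9 bases, and that of Erbb3 holds the microRNA gene Mir6917 on its own strand. Over the 23 samples these neighbours had 33277 and 341 counts, beside 331042 for Erbb2 and 518750 for Erbb3.

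Promoter sequences of the RefSeq table (build GRCm38.p6, 250 bases before to 50 after a gene start) were matched for 7 of the 10 genes (not Ereg, Erbb3 or Hbegf), with 2 entries for Errfi1 and so 8 in all. Both strands were searched for the cyclic AMP response element TGACGTCA, the AP-1 site TGANTCA, the Ets site CCGGAAGT, the CArG box and the NF-kB site. The cyclic AMP response element was found in 2 of the 8, that of Areg and 1 of the 2 of Errfi1, and in 588 of all 32851 promoters of the table (1.79%). The AP-1, Ets, CArG and NF-kB sites, found in 7.81%, 3.89%, 1.63% and 5.81% of all promoters, were in none of the 8, so no match overlapped another. Any link between the element and the profiles across the samples was not tested, and Hbegf, the closest of the 10 genes to Areg, had no promoter to search. The 2 promoters that hold the element are shown on the plus strand with the element in capitals. In Areg (chr5:91139349-91139648) it spans 61 to 54 bases before the gene start, and in Errfi1 (chr4:150854820-150855119) 51 to 44 bases before it. A match of letters is not evidence that a factor binds there.
Areg: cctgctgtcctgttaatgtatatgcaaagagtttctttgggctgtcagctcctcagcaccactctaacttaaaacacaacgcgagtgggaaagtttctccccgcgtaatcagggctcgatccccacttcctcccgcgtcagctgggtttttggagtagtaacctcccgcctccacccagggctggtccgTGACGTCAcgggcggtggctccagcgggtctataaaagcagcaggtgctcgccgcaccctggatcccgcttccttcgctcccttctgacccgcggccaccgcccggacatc
Errfi1: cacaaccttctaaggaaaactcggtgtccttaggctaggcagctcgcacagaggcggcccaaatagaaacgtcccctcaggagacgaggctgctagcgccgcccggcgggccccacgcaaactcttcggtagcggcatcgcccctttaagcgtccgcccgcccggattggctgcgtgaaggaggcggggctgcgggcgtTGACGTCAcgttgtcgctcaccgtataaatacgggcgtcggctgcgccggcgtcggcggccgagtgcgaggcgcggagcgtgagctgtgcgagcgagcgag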

How the data were processed

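Stranded total RNA depleted of ribosomal RNA was sequenced from 23 samples of colonic epithelium. The authors trimmed reads with cutadapt 1.2.1, mapped them to mm10 with STAR 2.5 and counted them per gene with featureCounts 1.5.0-p1, and they deposited raw counts for 24917 loci. The labels of the deposited counts do not give the annotation release or the treatment of reads with several hits. Counts were analysed in R 4.3.3 with edgeR 4.0.16 (filterByExpr, TMM scaling, quasi-likelihood F test) in each batch and over both with batch as a term, and p-values were adjusted over all genes tested. Alternatives were RLE or upper quartile scaling, no filter or a mean above 1 CPM, no fold threshold, DESeq2 1.42.0, limma 3.58.1 voom with sample weights, a block for the replicate number, fits of the 2 diets compared, and leaving out each sample in turn. Coordinates are those of the deposited loci. Profiles were compared on log2 CPM with 0.5 added. All 10 genes were named, with other genes of the pathway where called and up to 3 of the nearest profiles. The 10 genes and all lists were chosen with earlier results of these data known. No sample was left out. The pipeline was tested on simulated data with independent samples and the same relative spread for every gene. That test does not cover samples of the same mouse in both batches. TMM scaling assumes that most genes do not change.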

Additional observations from a re-analysis of the deposited data

Results flagged for a closer look

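Within groups of 4 or 5 samples, the highest and lowest sample were compared with their nearest neighbour, relative to the range of the group. Chance singles out about 5% of groups in this way. None of the 40 groups of values of the 10 genes held a sample so far from the others, and 4 of the 56 groups of marker sums and library totals did. In LF mice of batch 1, replicate 3 lay far above the others in the summed markers of stem and dividing cells, at 441 CPM, and of fibroblasts, at 26.8 CPM. In the HFLF mice of batch 1, replicate 2 lay far above the others in the summed markers of B and plasma cells, at 0.996 CPM. The smallest library, with 29189922 counts, was LF replicate 2 of batch 1, far below the other LF libraries of that batch.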

How the results depend on the processing

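The 14 calls of the 10 genes were refitted 371 times in all, keeping their direction each time and the call in 328 refits; with all samples included, 121 of 126 refits kept it. For HF against LF mice in batch 1, the number of the 10 genes called, 0 by edgeR, was 3 by DESeq2, 5 by limma voom and 1 (Hbegf) with a block for replicate number. Over both batches it was 7 without a fold threshold in place of 4, and between HFLF and HF mice it was 5 by DESeq2 in place of 3. With the block it was 2 and 5 in batch 2 and 3 and 3 over both batches, for HF against LF and HFLF against HF mice. The causes were not tested.

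Leaving out 1 sample at a time gave between 0 and 2 of the 10 genes for HF against LF mice in batch 1, 0 and 3 in batch 2 and 3 and 5 over both, between 0 and 5 for HFLF against HF mice in batch 2 and 1 and 6 over both, and between 0 and 1 for HFLF against LF mice in batch 1.

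Over all genes, HF against LF mice of batch 1 gave 512 calls by DESeq2, 2422 by limma voom, 92 with the block, 1 with RLE scaling and 2 without a filter, in place of 0. HFLF against HF mice of batch 1 gave 17, 3 and 0 by DESeq2, limma voom and the block, 2 without a filter and 0 with the 2 diets alone, in place of 1. HF against LF mice of batch 2 gave 1845, 1991 and 2080 by the same 3 in place of 1069, and HFLF against LF mice gave 16, 0 and 0 in place of 1. HFLF against LF mice gave 6 by DESeq2 in batch 1, and 6, 3 and 1 by the 3 over both batches, in place of 0. Without a fold threshold, both batches gave 4112 calls in place of 2623 for HF against LF mice and 2365 in place of 1500 for HFLF against HF mice.

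Of 90 log2 fold changes of the 10 genes, 15 took the other sign in a refit (35 of 2190 refits), none of them called. Leaving out 1 sample gave values between -0.11 and 0.041 for Tgfa (HF against LF, batch 1), -0.15 and 0.042 for Areg (HFLF against HF, batch 1), -0.66 and 0.019 for Btc (HFLF against HF, batch 1), -0.10 and 0.080 for Erbb2 (HFLF against LF, batch 1), -0.044 and 0.79 for Ereg (HFLF against LF, batch 1). Further ranges were -0.038 and 0.17 for Btc (HFLF against LF, batch 1), -0.054 and 0.0021 for Errfi1 (HF against LF, batch 2), -0.046 and 0.027 for Egfr (HFLF against LF, batch 2), -0.056 and 0.00051 for Tgfa (HFLF against LF, batch 2). The last were -0.034 and 0.12 for Btc (HFLF against LF, batch 2), -0.051 and 0.010 for Tgfa (HFLF against HF, both batches), -0.0054 and 0.072 for Erbb2 (HFLF against LF, both batches), -0.30 and 0.066 for Ereg (HFLF against LF, both batches). Other settings gave 0.0060 for Areg (HFLF against HF, batch 1) with the replicate block, 0.028 for Egfr (HFLF against LF, batch 2) by limma voom, -0.030 for Btc (HFLF against LF, batch 2) by limma voom, -0.0093 for Btc (HFLF against LF, both batches) by limma voom, 0.0028 for Errfi1 (HFLF against LF, both batches) by limma voom. Whether replicate numbers pair samples is not known: over 20 pairs of the same number and batch, correlations lay between -0.46 and 0.47 with a median of 0.095, beside -0.018 for pairs of different numbers, and were positive in 12 of 12 pairs of number 1 or 2 and in 2 of 8 of number 3 or 4. The pairs share samples and the values were centred on group means, so these counts of pairs are not independent and do not settle the pairing. Groups of 3 to 5 samples limit these comparisons.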
